A study of Homo sapiens with 12 samples.

Results

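The genes of MHC class I antigen presentation were examined in WI-38, a fibroblast strain grown from human fetal lung and much used to study senescence. The 9 members were taken by name. They included the heavy chain genes HLA-B, HLA-C, HLA-E and HLA-F, the light chain gene B2M, and the peptide transporter genes TAP1 and TAP2. The rest were the loading factor gene TAPBP and NLRC5, which encodes a transcriptional activator of class I genes. All 9 were among the 57773 genes in the count files and among the 21518 genes with enough counts to be tested.

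The study knocked down NTRK2, which encodes the receptor TrkB, or its ligand gene BDNF in senescent cells, and 12 mRNA libraries were deposited, 3 in each of 4 groups. All cells received a pool of siRNAs at 25 nM and were kept at low population doublings. The siCtrl proliferating group had the non-targeting pool and the vehicle DMSO, while the siCtrl, siNTRK2 and siBDNF senescent groups were harvested after 8 days with 50 µM etoposide, a topoisomerase II inhibitor that causes DNA double-strand breaks. The labels did not state whether the 3 libraries of a group came from separate cultures, and the study says only in general, not of these libraries, that its experiments were repeated independently. The p-values below therefore measure the spread between these libraries, which may be technical.

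Class I molecules sit on almost all nucleated cells and display peptides cut from the cell's own proteins to CD8+ T cells. A proteasome cuts the peptides, the transporter formed by TAP1 and TAP2 moves them into the endoplasmic reticulum, and tapasin, the product of TAPBP, holds an empty heavy chain with its light chain beside the transporter until a peptide fits. Interferons, NF-kappa B and NLRC5 are known activators of class I genes. HLA-E is also read by the inhibitory receptor NKG2A on natural killer cells.

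The DNA just upstream of several members carries short motifs that these activators are known to use, and the sequences of the 4 genes that rose in senescence and had an entry in the table used, with TAPBP, which fell, are shown so that the motifs can be compared. Each line gives the 250 bases before the RefSeq transcription start in GRCh38.p14, 5′ to 3′ on the strand of the gene, from the reference genome and not from these cells. Capitals mark matches on either strand to 4 motifs: the Y box (CCAAT), the X2 core (TGACG), the core of the interferon-stimulated response element (GAAANNGAA) and a kappa B motif. Where matches overlap, the capitals run together.
HLA-B, chr6:31357180-31357429, minus strand: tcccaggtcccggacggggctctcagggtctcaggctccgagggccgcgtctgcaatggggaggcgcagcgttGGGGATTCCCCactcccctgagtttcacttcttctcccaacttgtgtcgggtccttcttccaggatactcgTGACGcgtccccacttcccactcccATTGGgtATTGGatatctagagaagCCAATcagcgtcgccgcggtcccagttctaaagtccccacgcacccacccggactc
HLA-C, chr6:31272093-31272342, minus strand: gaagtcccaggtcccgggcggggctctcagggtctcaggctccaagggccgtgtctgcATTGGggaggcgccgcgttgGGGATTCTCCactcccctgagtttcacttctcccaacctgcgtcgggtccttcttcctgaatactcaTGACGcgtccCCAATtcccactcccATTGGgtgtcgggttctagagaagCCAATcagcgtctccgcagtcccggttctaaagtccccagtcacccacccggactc
B2M, chr15:44711267-44711516, plus strand: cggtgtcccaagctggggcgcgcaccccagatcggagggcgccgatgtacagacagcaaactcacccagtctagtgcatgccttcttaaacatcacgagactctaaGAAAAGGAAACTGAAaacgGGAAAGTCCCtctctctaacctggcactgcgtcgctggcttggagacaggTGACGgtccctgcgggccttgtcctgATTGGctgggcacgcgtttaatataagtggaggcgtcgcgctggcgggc
TAP1, chr6:32853705-32853954, minus strand, the first of its starts: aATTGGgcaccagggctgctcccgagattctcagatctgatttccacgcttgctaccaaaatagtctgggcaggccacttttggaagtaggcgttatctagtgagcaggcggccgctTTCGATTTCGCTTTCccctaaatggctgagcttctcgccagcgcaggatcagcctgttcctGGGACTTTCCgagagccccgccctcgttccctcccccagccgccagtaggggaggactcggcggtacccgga
TAPBP, chr6:33314079-33314328, minus strand: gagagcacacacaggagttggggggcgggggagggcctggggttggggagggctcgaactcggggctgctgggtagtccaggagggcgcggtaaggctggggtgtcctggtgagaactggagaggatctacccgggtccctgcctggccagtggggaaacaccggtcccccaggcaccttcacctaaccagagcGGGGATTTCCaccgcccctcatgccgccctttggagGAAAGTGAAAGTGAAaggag

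Of the 9 members, 7 had an entry in the promoter table; HLA-E and NLRC5 are named only. The Y box was found upstream of 5 of the 7 and in 32% of all 35116 promoters searched over the same length. The X2 core was found in 4 of 7 members against 21.2% of promoters. The interferon core was found in 5 of 7 against 6.88%, and the kappa B motif in 5 of 7 against 9.96%. The interferon core was absent in these letters upstream of HLA-B and HLA-C and present upstream of HLA-F, B2M, TAP1, TAP2 and TAPBP. This count depended on the letters chosen: a shorter string, GAANNGAA, searched after the matches of the first were seen, was found upstream of HLA-B, HLA-C and TAP2, that is 3 of 7 members, and in 16.2% of promoters. In HLA-B, HLA-C and B2M a kappa B match, an X2 core and a Y box followed each other in that order toward the start. The motifs were chosen as those known activators of class I genes use, so these shares are not a test of enrichment. The heavy chain genes are near-identical over long stretches, so their matches are not independent. A member was counted if any of its starts had a match, while the background counts each promoter. A match is a description of letters and was not tested for binding.

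**Figure D1:**
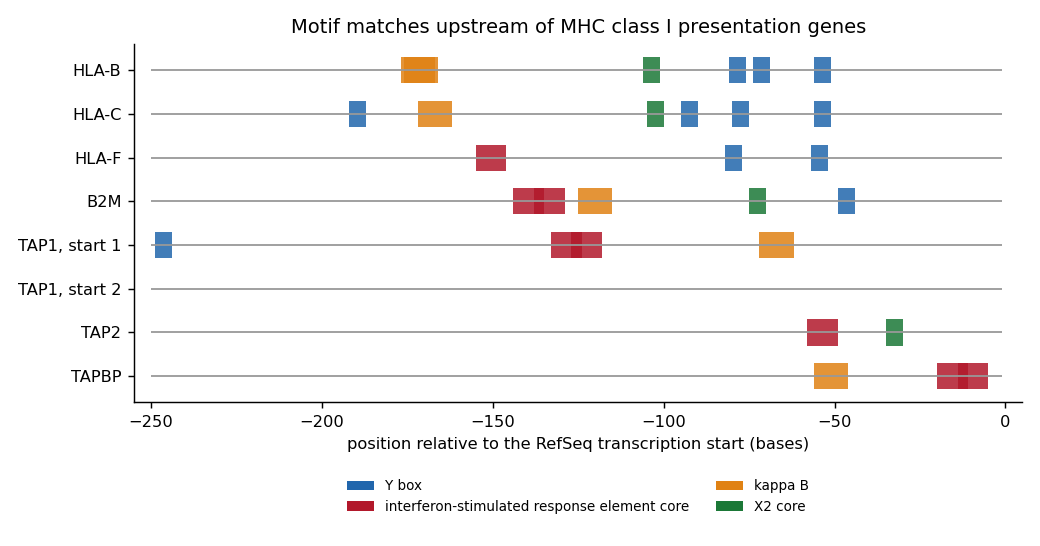
Positions of motif matches in the 250 bases upstream of each RefSeq start, for the 7 members with an entry (TAP1 has 2 starts). The x axis is the distance from the transcription start in bases, and each coloured box is a match to 1 of the 4 motifs on either strand. HLA-B, HLA-C and B2M share a kappa B match, an X2 core and a Y box in the same order, TAPBP and the first TAP1 start have a kappa B match, and the second TAP1 start has no match.

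The library totals ranged from 31567912 to 72328151 counts. All 7 fibroblast markers were present, with summed levels of 31667 to 33625 normalized CPM (counts scaled to a common library size with TMM) in proliferating, 22932 to 24718 in siCtrl, 26876 to 29798 in siNTRK2 and 23751 to 24316 in siBDNF senescent libraries. The 6 leukocyte markers summed to 0.313 to 0.433 normalized CPM in proliferating libraries, where PTPRC, CD3E and LYZ were at 0 in all 3, and to 2.21 to 2.34, 1.71 to 2.24 and 2.53 to 3.24 in the siCtrl, siNTRK2 and siBDNF senescent libraries, where no marker was at 0 in a whole group. The 6 endothelial and epithelial markers matched to the files summed to 57.3 to 62.2 in proliferating libraries, where CDH5 was at 0, and to 88.8 to 109, 82.9 to 87.9 and 93.4 to 94.5 in the senescent groups. KRT18 and KRT19 carried most of that sum, at means of 40.7 and 17.8 normalized CPM in proliferating and 45.7 and 50.9 in siCtrl senescent cells, while CDH5, VWF, EPCAM and CDH1 had at most 2.35 in any library. These sums moved with the groups, and their part in the results below was not tested. NTRK2 had 0 counts in all 3 siNTRK2 libraries, against 7, 15 and 10 in the siCtrl senescent ones, which is itself near the floor of 3 counts. BDNF was lower by a log2 fold change of -1.79 (SE 0.0487, edgeR adjusted p = 1.72e-18) with siBDNF and higher by 0.33 with siNTRK2 (adjusted p = 8.35e-06). In senescence CDKN1A, a cell cycle inhibitor, rose by 1.62 (adjusted p = 1.98e-20) while LMNB1, a nuclear lamin, and MKI67, a proliferation marker, fell (adjusted p = 7.42e-21 and 2.86e-16). With siNTRK2, against siCtrl senescent cells, CDKN1A fell by -0.50 (adjusted p = 2.80e-09), LMNB1 rose by 0.62 (adjusted p = 4.50e-04) and MKI67 rose by 1.72 (adjusted p = 4.33e-08). With siBDNF, MKI67 rose by 0.91 (adjusted p = 5.53e-04), and CDKN1A and LMNB1 did not pass the test (-0.04, adjusted p = 0.548, and -0.18, adjusted p = 0.375). In senescence and with siNTRK2, these senescence markers changed in the same comparisons as HLA-E, TAP1 and NLRC5 below. With siBDNF only MKI67 among them did. The part of these markers in those results was not tested.

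The members covered a wide range of mRNA levels, compared here as normalized CPM per kilobase of the canonical transcript. In siCtrl senescent cells B2M stood highest at 608 ± 16.1 (SD, n = 3), followed by HLA-C at 335 ± 12.6, HLA-E at 137 ± 5.98 and HLA-B at 88.5 ± 4.25. TAPBP had 35.0 ± 1.21, TAP1 24.0 ± 0.706 and TAP2 6.78 ± 0.0763. NLRC5, at 0.877 ± 0.106, and HLA-F, at 0.475 ± 0.0958, were the lowest. The order of the means was the same in all 4 groups, and no neighbours in it overlapped within 1 SD. The nearest pair among the heavy chains, HLA-E and HLA-B, stood at 75.3 ± 3.78 and 64.7 ± 1.89 in proliferating cells. TAP1 mRNA was above TAP2 mRNA in every group although both proteins enter the transporter. Before the division by length their means were nearer, at 43.3 and 39.4 normalized CPM in proliferating cells. A readthrough gene shares 2023 exonic bases with TAP2 on the same strand, and reads there may not have been counted for TAP2.

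In senescent compared with proliferating cells with siCtrl, 5 of the 9 members rose (HLA-B, HLA-C, HLA-E, B2M and TAP1), 2 fell (TAPBP and NLRC5), and HLA-F and TAP2 did not pass the test. Of all genes tested, 29.8% rose and 28.3% fell in the same comparison. The median log2 fold change was 0.38 over the members and 0.02 over all genes tested. Calls were made at an adjusted p under 0.05 with edgeR's quasi-likelihood test, over all 21518 genes. In bulk RNA, fewer cells expressing a gene and less of its RNA per cell cannot be told apart.

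HLA-E (chromosome 6, 30457286 to 30461971, plus strand; coordinates of members are GRCh37/hg19) had the largest change of the members. Its level was 187, 186 and 203 normalized CPM in the proliferating libraries and 363, 333 and 351 in the siCtrl senescent libraries. The lowest senescent library was thus well above the highest proliferating one. The log2 fold change was 0.86 (SE 0.0461, 95% interval 0.77 to 0.96, adjusted p = 2.83e-14), a ratio of means of 1.82.

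The classical heavy chains, which present peptides to T cells, rose less. HLA-B (chromosome 6, 31321649 to 31334844, minus strand) had 98.9, 96.7 and 102 normalized CPM in proliferating and 130.3, 143 and 135 in senescent libraries. HLA-C (chromosome 6, 31236526 to 31239907, minus strand) had 398, 381 and 413 and then 507, 539 and 504. Neither gene's groups overlapped. The log2 fold changes were 0.45 (SE 0.0469, adjusted p = 8.12e-09) for HLA-B and 0.38 (SE 0.0469, adjusted p = 1.72e-07) for HLA-C.

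HLA-F (chromosome 6, 29690552 to 29706305, plus strand), a non-classical heavy chain, was near the limit of what these libraries could resolve. It had 36, 32 and 16 counts in proliferating and 36, 35 and 50 counts in senescent libraries. Scaled to normalized CPM, these were 0.646, 0.456 and 0.433 and then 0.641, 0.603 and 0.866, and the groups overlapped. The log2 fold change of 0.45 had a 95% interval of -0.21 to 1.11 (adjusted p = 0.236), so the interval holds a change of the size seen for HLA-B, and one of the size seen for HLA-E, as well as no change.

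Heavy chain genes are near-identical over long stretches and highly variable between people, so reads may have been shared between them or lost where the line's alleles differ from the reference, and single heavy chain values are uncertain to that extent. Summed over the 4 genes, the level was 689 ± 27.7 normalized CPM in proliferating and 1003 ± 12.7 in senescent cells (SD, n = 3), a log2 fold change of 0.54, given without a test. An annotated pseudogene on the opposite strand (ENSG00000271581) shares 671 bases with the exons of HLA-B. It rose by 0.44 (SE 0.0824, adjusted p = 6.75e-05), and whether the counting used the strand was not given in the sources used here.

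B2M (chromosome 15, 45003556 to 45011049, plus strand) encodes beta-2 microglobulin, the light chain without which most heavy chains do not reach the cell surface. It rose only slightly, from 514, 519 and 509 normalized CPM to 566, 562 and 590.3. The groups did not overlap, and the log2 fold change was 0.16 (SE 0.0450, adjusted p = 0.00433). Correcting each library for GC content and transcript length, a setting chosen after seeing the data, gave 0.38 in its place, and the range over the alternatives was 0.12 to 0.38.

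The genes of the peptide loading complex moved apart. TAP1 (chromosome 6, 32812986 to 32821593, minus strand) had 42.3, 42.2 and 45.4 normalized CPM in proliferating and 65.4, 62.3 and 65.8 in senescent libraries, with no overlap and a log2 fold change of 0.58 (SE 0.0503, adjusted p = 3.68e-10). Its partner TAP2 (chromosome 6, 32789610 to 32806516, minus strand) had 39.4, 38.6 and 40.1 and then 38.7, 38.2 and 37.8. The TAP2 groups overlapped, and the log2 fold change of -0.04 had an interval of -0.15 to 0.07 (adjusted p = 0.518), which leaves out an increase as large as that of TAP1. TAPBP (chromosome 6, 33267471 to 33282061, minus strand) fell from 135, 134 and 137 to 123, 124 and 116 normalized CPM, a log2 fold change of -0.16 (SE 0.0475, adjusted p = 0.00478) without overlap.

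An antisense gene that shares 672 exonic bases with TAP1, PSMB8-AS1, rose by a similar amount (0.59, SE 0.0838, adjusted p = 1.43e-06), at 10.5 and 15.8 normalized CPM, and reads on the shared stretch, 14.2% of the TAP1 exons, could be told apart only if the counting used the strand. A readthrough gene that shares 2023 bases with TAP2 on the same strand (ENSG00000250264) had a log2 fold change of -0.08 (adjusted p = 0.335).

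NLRC5 (chromosome 16, 57023397 to 57117443, plus strand), the transactivator of class I genes, moved opposite to the 5 members that rose. It had 10.6, 10.8 and 10.8 normalized CPM in proliferating libraries and 5.59, 6.77 and 5.47 in senescent ones. Every senescent library was below every proliferating one, and the log2 fold change was -0.85 (SE 0.0995, 95% interval -1.06 to -0.65, adjusted p = 6.27e-08). No member passed the cutoff of an absolute log2 fold change over 1 that the study used, against 16.7% of all genes tested, and the largest member change was 0.86. The 7 members called were the same under every alternative fitted at an adjusted p under 0.05, including leaving out each library in turn.

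**Figure D2:**
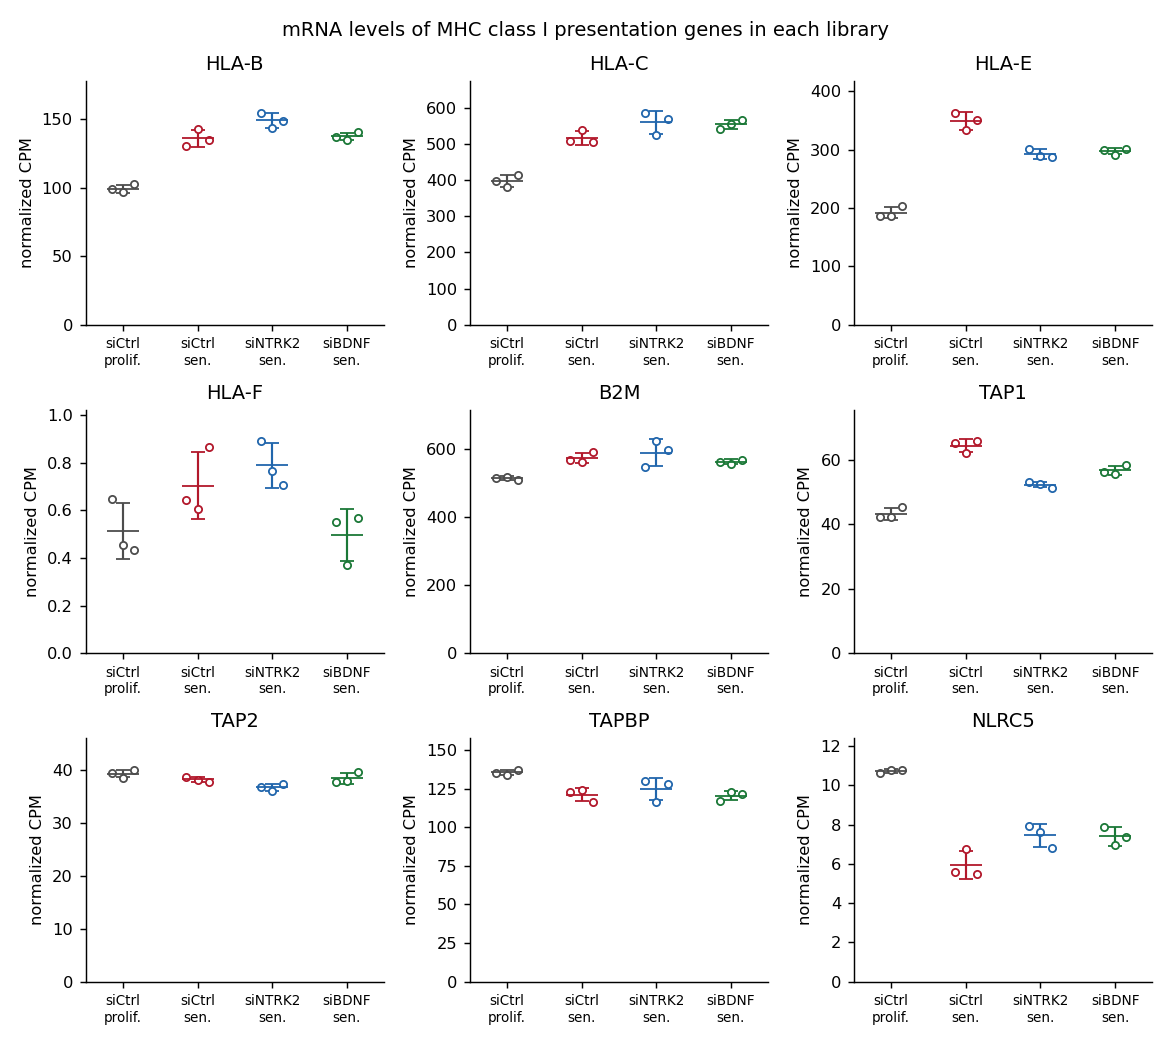
Level of each member in every library, in normalized CPM on linear axes that start at 0, by group (siCtrl proliferating, then siCtrl, siNTRK2 and siBDNF senescent). Open circles are libraries, the long line is the mean and the bars are 1 SD (n = 3). HLA-E and TAP1 rose in senescence and lay between the siCtrl groups with either siRNA, NLRC5 showed the opposite order, and TAP2 stayed between 36.0 and 40.1 normalized CPM throughout.

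With siNTRK2, 4 members changed against siCtrl in senescent cells: HLA-E and TAP1 fell, and HLA-B and NLRC5 rose. Of all genes tested, 11.1% rose and 10.0% fell, and the median log2 fold change was 0.05 over the members and -0.00 over all genes. The siCtrl senescent libraries in this comparison are the same 3 that were compared with proliferating cells above, and they serve again for siBDNF below, so these comparisons are not independent of one another.

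HLA-E had 302, 289 and 288 normalized CPM with siNTRK2 against 363, 333 and 351 with siCtrl. Its groups did not overlap, and it fell by a log2 fold change of -0.25 (SE 0.0456, adjusted p = 2.27e-04). TAP1 had 53.1, 52.6 and 51.5 against 65.4, 62.3 and 65.8, again without overlap, and fell by -0.30 (SE 0.0498, adjusted p = 8.85e-05). Both stayed above every proliferating library. The antisense PSMB8-AS1 fell by -0.24 (SE 0.0821, adjusted p = 0.0349) in the same comparison.

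HLA-B rose to 155, 144 and 149 normalized CPM with siNTRK2, a log2 fold change of 0.13 (SE 0.0464, adjusted p = 0.0419). The lowest siNTRK2 library, at 144, was barely above the highest siCtrl library, at 143. The call was lost without siCtrl senescent library 1 (0.10, adjusted p = 0.210), siCtrl senescent library 3 (0.13, adjusted p = 0.105), siNTRK2 library 1 (0.11, adjusted p = 0.162) or siNTRK2 library 3 (0.13, adjusted p = 0.0957), and adjusted p ranged from 0.00699 to 0.210 over the alternatives. The antisense pseudogene at HLA-B did not pass the test (0.03, adjusted p = 0.866).

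NLRC5 had 7.94, 7.64 and 6.82 normalized CPM with siNTRK2, a log2 fold change of 0.33 (SE 0.101, adjusted p = 0.0215). The groups were separated only by the gap from 6.77 to 6.82, and all siNTRK2 libraries were below the proliferating ones. The call was lost without siCtrl senescent library 1 (0.29, adjusted p = 0.0999), siCtrl senescent library 3 (0.28, adjusted p = 0.103) or siNTRK2 library 1 (0.28, adjusted p = 0.0862), and with only the groups compared in the fit (0.33, adjusted p = 0.0551), with adjusted p from 0.00383 to 0.103 over the alternatives.

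The other 5 members did not pass the test with siNTRK2. HLA-C had 586, 524 and 569 normalized CPM and overlapped siCtrl (0.11, 95% interval 0.02 to 0.21, adjusted p = 0.0848). It was called higher without siCtrl senescent library 2 (0.16, adjusted p = 0.0197) or siNTRK2 library 2 (0.17, adjusted p = 0.0120), with library totals, without a filter and with the length and GC correction, and adjusted p ranged from 6.03e-04 to 0.306 over the alternatives. B2M had 545, 622 and 598 (0.04, interval -0.05 to 0.13, adjusted p = 0.607), the widest spread of B2M in any group. TAP2 had 36.9, 36.0 and 37.3 (-0.06, interval -0.16 to 0.05, adjusted p = 0.485), and TAPBP had 129.9, 116 and 128 (0.05, interval -0.05 to 0.14, adjusted p = 0.547). HLA-F had 55, 38 and 38 counts (0.17, interval -0.46 to 0.79, adjusted p = 0.760). The sum of the 4 heavy chains was 1002 ± 43.4 normalized CPM (SD, n = 3), with a log2 fold change of -0.00 and no test.

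With siBDNF, 3 members changed against siCtrl: HLA-E and TAP1 fell and NLRC5 rose. Of all genes tested, 10.3% rose and 10.2% fell, and the median log2 fold change was -0.00 over the members and 0.00 over all genes.

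HLA-E had 299, 291 and 302 normalized CPM with siBDNF, all below the siCtrl libraries, and fell by -0.23 on the log2 scale (SE 0.0456, adjusted p = 6.47e-04). TAP1 had 56.4, 55.6 and 58.5, also without overlap, and fell by -0.18 (SE 0.0498, adjusted p = 0.00939). This call was lost without siCtrl senescent library 3 (-0.17, adjusted p = 0.0534) or siBDNF library 2 (-0.16, adjusted p = 0.0681), with adjusted p from 0.00161 to 0.0681 over the alternatives. PSMB8-AS1 fell by -0.27 (SE 0.0824, adjusted p = 0.0203).

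NLRC5 had 7.91, 6.94 and 7.39 normalized CPM with siBDNF, above the 5.59, 6.77 and 5.47 of siCtrl (0.31, SE 0.102, adjusted p = 0.0304). The call was lost without siCtrl senescent library 1 (0.27, adjusted p = 0.131), siCtrl senescent library 3 (0.26, adjusted p = 0.149), siBDNF library 1 (0.27, adjusted p = 0.118) or siBDNF library 3 (0.31, adjusted p = 0.0828), with adjusted p from 0.00605 to 0.149 over the alternatives. The depth of siBDNF library 1, at 31567912 counts, was the lowest of all.

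HLA-C had 542, 556 and 566 normalized CPM with siBDNF, all above the siCtrl libraries, but the log2 fold change of 0.10 did not pass the test (interval 0.01 to 0.20, adjusted p = 0.134). It was called higher without siCtrl senescent library 2 (0.14, adjusted p = 0.0403), with library totals and with the length and GC correction, and adjusted p ranged from 0.00172 to 0.342 over the alternatives. HLA-B had 137, 135 and 140.4 and overlapped siCtrl (0.02, interval -0.08 to 0.11, adjusted p = 0.868). B2M had 563, 554 and 568 (-0.03, interval -0.12 to 0.06, adjusted p = 0.744). For TAP2 the libraries had 37.7, 38.0 and 39.6 (0.01, interval -0.10 to 0.12, adjusted p = 0.936) and for TAPBP 117, 123 and 122 (-0.00, interval -0.10 to 0.09, adjusted p = 0.965). These intervals leave out changes as large as those of HLA-E. HLA-F had 18, 25 and 39 counts (-0.52, interval -1.18 to 0.14, adjusted p = 0.293), and the heavy chain sum was 990.3 ± 16.7 normalized CPM (SD, n = 3), a log2 fold change of -0.02 without a test. At an absolute log2 fold change over 1 no member was called with either siRNA, against 0.957% of genes tested with siNTRK2 and 0.609% with siBDNF.

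**Figure D3:**
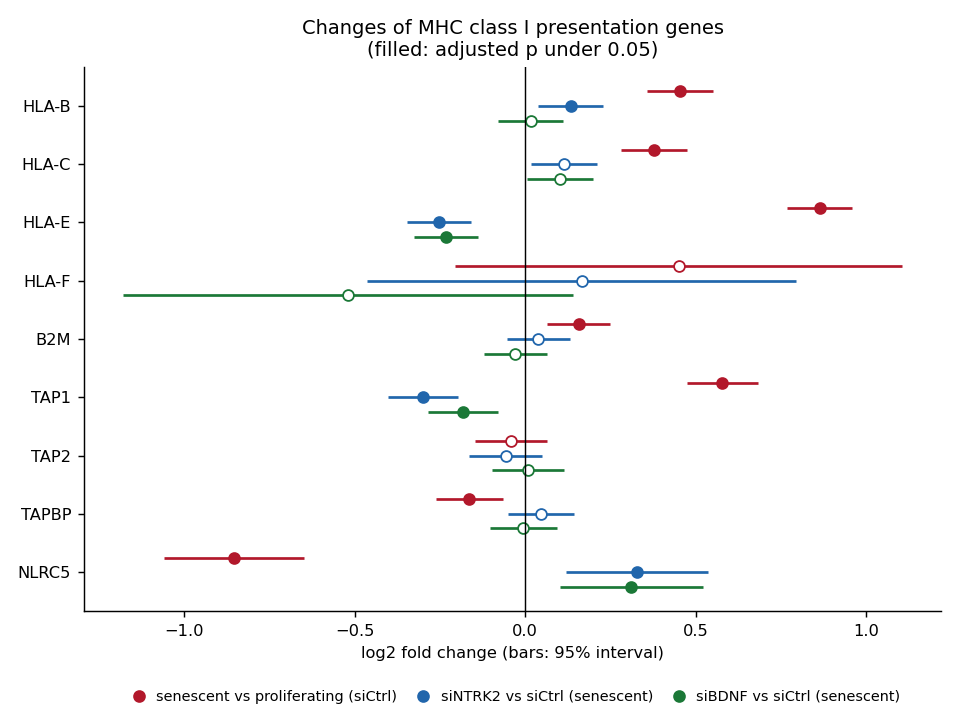
Log2 fold change of each member in the 3 comparisons, with 95% intervals from the edgeR fit; filled points passed an adjusted p under 0.05. HLA-E and TAP1 lie to the right in senescence and to the left with both siRNAs, NLRC5 lies on the opposite sides, and the interval of HLA-F spans 0 in all 3. The comparisons share the 3 siCtrl senescent libraries.

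Compared directly, siNTRK2 and siBDNF senescent cells differed in none of the 9 members by edgeR (3 at an unadjusted p under 0.05) or by DESeq2, against 8.84% of genes tested that were higher and 7.86% that were lower with siNTRK2, and 1.16% past an absolute log2 fold change of 1. The 95% intervals of the difference were 0.02 to 0.21 for HLA-B (adjusted p = 0.0883), -0.22 to -0.01 for TAP1 (adjusted p = 0.116) and 0.03 to 1.34 for HLA-F (adjusted p = 0.153), the 3 members at an unadjusted p under 0.05. They were -0.12 to 0.07 for HLA-E, -0.08 to 0.11 for HLA-C, -0.03 to 0.16 for B2M, -0.17 to 0.04 for TAP2, -0.05 to 0.15 for TAPBP and -0.19 to 0.22 for NLRC5. Differences within these bounds are not excluded.

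The immunoproteasome and its PA28 activator favour peptides that fit class I grooves. Of their 5 genes, 4 fell in senescence and none rose, beside 28.3% and 29.8% of all genes tested. Their median was -0.54, against 0.02 over all genes. PSMB9 went from 4.25 ± 0.259 to 1.54 ± 0.0693 normalized CPM (SD, n = 3), a log2 fold change of -1.46 (SE 0.219, adjusted p = 3.33e-06), although it is transcribed away from TAP1 from a shared promoter region. PSMB8 fell by -0.58 (adjusted p = 8.63e-08), PSMB10 by -0.36 (adjusted p = 1.95e-04) and PSME1 by -0.54 (adjusted p = 4.39e-08), while PSME2 had -0.04 (adjusted p = 0.561). With siNTRK2, 3 of the 5 fell (PSMB8 -0.33, PSMB10 -0.25, PSME2 -0.25), and with siBDNF also 3 (PSMB8 -0.29, PSMB9 -0.74, PSME2 -0.19). None of the 5 rose with either siRNA. Among all genes tested, 10.0% fell with siNTRK2 and 10.2% with siBDNF.

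Of the 6 peptide trimming and loading chaperone genes, 3 fell in senescence and none rose, beside 28.3% and 29.8% of all genes tested. ERAP1, an aminopeptidase that trims peptides in the endoplasmic reticulum, fell by -0.72 (SE 0.0549, adjusted p = 2.81e-11), and the chaperones CALR and PDIA3 fell by -0.36 (adjusted p = 6.00e-08) and -0.26 (adjusted p = 8.59e-06). ERAP1 rose with siNTRK2 (0.18, adjusted p = 0.0214) and with siBDNF (0.15, adjusted p = 0.0497), and CALR fell with siNTRK2 (-0.12, adjusted p = 0.0462). CANX, TAPBPL and ERAP2 did not pass the test in these comparisons.

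Of the 12 genes for transcription factors of class I genes, 10 fell in senescence and 1 rose, beside 28.3% and 29.8% of all genes tested. Their median was -0.53, against 0.02 over all genes. The one that rose was RELA, the p65 subunit of NF-kappa B, from 89.7 ± 2.96 to 114 ± 3.45 normalized CPM (SD, n = 3), a log2 fold change of 0.35 (SE 0.0498, adjusted p = 1.79e-06). Its partner NFKB1 fell by -0.92 (SE 0.0568, adjusted p = 4.94e-13). NFYA, a subunit of the factor that binds the Y box, fell by -0.55 (adjusted p = 6.56e-09), and RFXANK, a subunit of the RFX complex, by -0.75 (adjusted p = 2.44e-09).

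With siNTRK2, 2 of these 12 genes fell and 1 rose, beside 10.0% and 11.1% of all genes tested. With siBDNF 1 fell and 1 rose, beside 10.2% and 10.3%. RELA fell in both (-0.32, adjusted p = 3.47e-05, and -0.23, adjusted p = 0.00184). NFYA rose in both (0.33, adjusted p = 1.02e-04, and 0.26, adjusted p = 0.00135). IRF1 fell with siNTRK2 (-0.24, adjusted p = 0.0119) and had -0.05 with siBDNF (adjusted p = 0.651).

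The interferon genes in the list, IFNG and IFNB1, were at or near 0. They had at most 1 count in any library, under the 3 counts taken as detected, and were not tested. Other interferon genes were not examined. Of the 7 receptor and kinase genes tested, 1 rose and 2 fell in senescence, beside 29.8% and 28.3% of all genes tested. IFNGR1 rose (0.24, adjusted p = 0.00234) while IFNAR2 and JAK1 fell (-0.27, adjusted p = 0.0148, and -0.29, adjusted p = 1.77e-06). None changed with siNTRK2 by edgeR at an adjusted p under 0.05, beside 11.1% of all genes tested that rose and 10.0% that fell. With siBDNF the type I receptor genes IFNAR1 (0.43, adjusted p = 2.67e-04) and IFNAR2 (0.31, adjusted p = 0.0171) rose, beside 10.3% of all genes.

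Of the 10 interferon-stimulated genes, 3 rose and 5 fell in senescence, beside 29.8% and 28.3% of all genes tested. ISG15, a ubiquitin-like modifier, rose from 21.2 ± 0.593 to 30.2 ± 1.38 normalized CPM (SD, n = 3), a log2 fold change of 0.51 (SE 0.0676, adjusted p = 4.68e-07). GBP1, a guanylate-binding protein of cell-autonomous defence, fell by -1.56 (SE 0.0632, adjusted p = 1.25e-16), and IFIT1, which binds foreign RNA, fell by -0.87 (adjusted p = 2.38e-07). With siNTRK2, 7 fell and 1 rose, with a median of -0.44, beside 10.0% and 11.1% of all genes tested. With siBDNF 6 fell and none rose, with a median of -0.36, beside 10.2% and 10.3%. GBP1 was the one that rose with siNTRK2 (0.74, adjusted p = 5.87e-09), and it fell with siBDNF (-0.39, adjusted p = 1.20e-04). ISG15 fell with both (-0.49, adjusted p = 8.35e-06, and -0.42, adjusted p = 6.24e-05), to 21.5 ± 1.80 and 22.5 ± 1.01 normalized CPM (SD, n = 3).

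**Figure D4:**
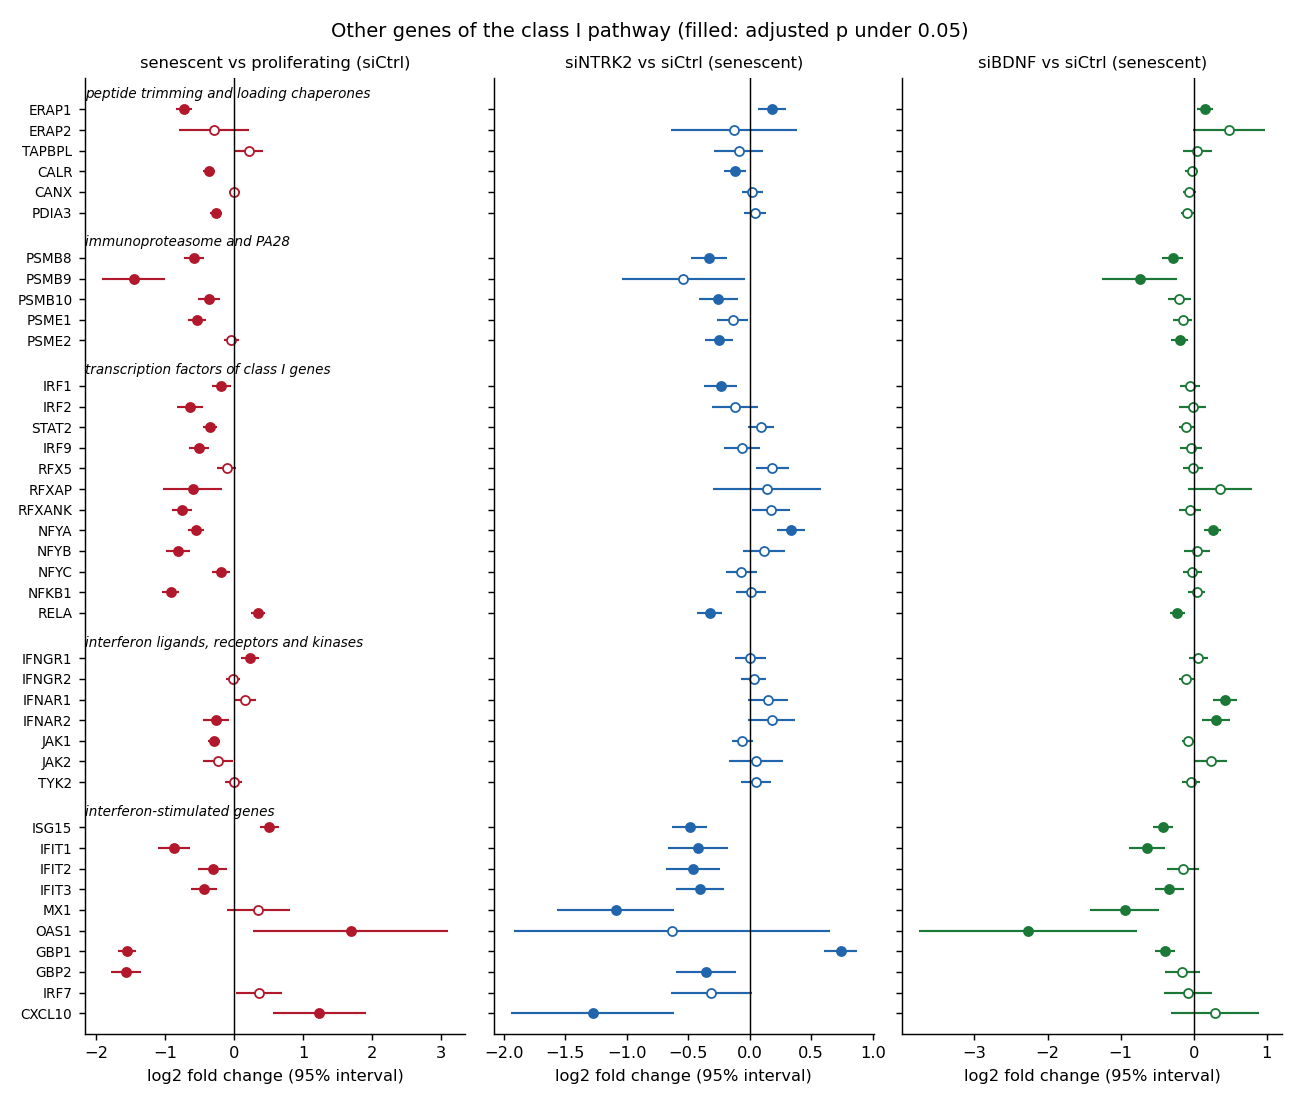
Log2 fold changes with 95% intervals of the tested genes of 5 lists around class I presentation, in the 3 comparisons (each panel has its own x axis); filled points passed an adjusted p under 0.05. In senescence 4 of 5 immunoproteasome and PA28 genes and 10 of 12 transcription factor genes fell, beside 28.3% of all genes tested. Of the 10 interferon-stimulated genes 7 fell with siNTRK2 and 6 with siBDNF, beside 10.0% and 10.2% of all genes.

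The genes whose pattern over the 12 libraries was nearest to that of a member were found by the root mean square difference of centred log2 values among 15567 genes. For HLA-B these were KLC2 (0.0444), KIF1C (0.0447) and PLOD1 (0.0514), and for B2M they were GEMIN7 (0.0395), OGFOD1 (0.0414) and ATP6V1H (0.0428). For TAP1 they were NEIL2 (0.0409), ENSG00000269871 (0.0410) and VAT1 (0.0415). NLRC5 was nearest to CHAF1A (0.0660), POGK (0.0809) and PBX2 (0.0932). No member or gene of the pathway lists was among them.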

How the data were processed

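Poly(A)-selected RNA was sequenced in 12 libraries from a kit that marks strand, and the deposited files hold counts, that is whole reads per Ensembl gene, without normalization and with 1 file per library. Per the labels and methods, the authors demultiplexed with bcl2fastq 2.20.0.422, trimmed adapters with cutadapt, aligned to hg19 with STAR 2.4.0j and counted with featureCounts 1.6.4. The strand and multi-mapping settings of the counting are not given in the sources used here. Groups were taken from the sample labels. Of 57773 gene identifiers, 55538 were paired with a symbol, and 41004 had a count; PECAM1 was not matched.

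Counts were analysed in R 4.3.3 with edgeR 4.0.16: TMM normalization, filterByExpr over the 4 groups (21518 genes), 1 term per group over all 12 libraries, the quasi-likelihood test, and Benjamini-Hochberg adjustment over all genes tested. DESeq2, which the study's methods name, was the alternative test, run here as version 1.42.0. Other alternatives changed the normalization, the filter, the libraries in the fit, the replicate block and the threshold. An offset for length and GC content and a shorter interferon motif were added after seeing the data. The scripts were tested on simulated data. Totals ranged from 31567912 to 72328151 counts. The floor of detection was 3 counts, or 0.0427 to 0.0916 normalized CPM, and covers counting error only. Replicate libraries differed by more than sampling noise, so each counted once.

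All 9 members are named in every comparison, and genes of the lists where their list is described. For HLA-B, B2M, TAP1 and NLRC5 the 3 genes of nearest pattern were named, by the root mean square difference of log2 normalized CPM among genes with a mean of at least 1. The members and lists were chosen with earlier results of these data known, and 1 gene of the transcription factor list and 1 leukocyte marker are not reported here. Coordinates of members and overlaps are from GENCODE (GRCh37), and upstream sequences from RefSeq (GRCh38.p14), matched by symbol.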

Additional observations from a re-analysis of the deposited data

Results flagged for a closer look

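Among the 52 tested genes around class I presentation, 10 differed between siNTRK2 and siBDNF senescent cells in the direct edgeR comparison, and none of the 9 members did (3 members at an unadjusted p under 0.05, and none by DESeq2). Of the 52, 11.5% were higher and 7.69% lower with siNTRK2, beside 8.84% and 7.86% of all genes tested. Values are log2 fold changes of siNTRK2 over siBDNF with adjusted p over all genes tested. GBP1, a guanylate-binding protein, had the largest positive value, 1.13 (adjusted p = 3.00e-12), with 35.4, 42.4 and 39.5 normalized CPM with siNTRK2 against 18.8, 17.3 and 17.6 with siBDNF. CXCL10, a chemokine for T cells, had the largest negative value, -1.57 (adjusted p = 9.61e-04), with 0.776, 0.343 and 0.633 normalized CPM against 1.43, 1.92 and 1.88. These came from 48, 17 and 34 counts against 47, 130 and 129, in libraries of unlike depth. FCGRT, the heavy chain of the neonatal Fc receptor, was higher by 0.57 (adjusted p = 2.47e-08), with 68.7, 66.4 and 69.3 normalized CPM against 43.8, 46.6 and 47.5.

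Smaller differences were seen for the other 7 genes. STAT2 was higher with siNTRK2 by 0.19 (adjusted p = 0.00948), RFX5 by 0.19 (adjusted p = 0.0490), RFXANK by 0.22 (adjusted p = 0.0383) and PDIA3 by 0.13 (adjusted p = 0.0402). The interferon receptor gene IFNAR1 was lower by -0.28 (adjusted p = 0.0132), IFIT2 by -0.32 (adjusted p = 0.0434) and HLA-DMB, which edits class II peptides, by -0.55 (adjusted p = 0.0474).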

How the results depend on the processing

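The 7 members called in senescence were called under every alternative fit and without each library in turn (7 to 7). With siNTRK2 the count of 4 became 2 with only the groups compared (HLA-B and NLRC5 lost) and 3 with DESeq2 size factors. It became 5 with library totals, without a filter and with the length and GC offset (HLA-C gained), and 2 to 5 without a library. With siBDNF the count of 3 became 1 to 4 without a library. Between the siRNAs the count of 0 became 1 with library totals (TAP1), with the length and GC offset (TAP1) and with only the groups compared (HLA-B). That count was 0 to 1 without a library. An absolute log2 fold change over 1 left 0 in all comparisons. HLA-B with siNTRK2 was also lost with DESeq2 size factors (adjusted p = 0.0510), TAP1 with siBDNF with library totals (-0.13, adjusted p = 0.0575) and NLRC5 with siBDNF with the offset (0.26, adjusted p = 0.0644). The cause was not tested.

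Changes of sign were confined to members that passed no test in the comparison. With siBDNF, library totals gave 0.0292 for B2M and 0.0522 for TAPBP; TAPBP had 0.00598 without a filter, 0.00446 with at least 10 counts in every library and 0.0176 with the offset; TAP2 had -0.0376 with the offset. Between the siRNAs, library totals gave -0.0266 for HLA-C and -0.0215 for NLRC5. Without a library, with siBDNF HLA-B ranged from -0.0146 to 0.0597, TAP2 from -0.0158 to 0.0236 and TAPBP from -0.0313 to 0.0180; between the siRNAs HLA-C ranged from -0.0212 to 0.0636 and NLRC5 from -0.0299 to 0.0795. Over all members and the alternatives other than leaving out 1 library, 267 values kept direction and call, 8 changed sign, 8 gained a call and 5 lost one.

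The replicate block gave the same counts of members (7, 4, 3 and 0). In deviations from the group means, same-numbered libraries of different groups correlated by -0.112 to 0.130 and different-numbered ones by -0.197 to 0.159. With 3 libraries per group, these values cannot decide whether same-numbered libraries shared an origin. Over all genes, the count past a log2 fold change of 1 with at least 10 counts in every library was 1646 against 3604 in senescence, 91 against 206 with siNTRK2, 61 against 131 with siBDNF and 110 against 250 between them. Library totals moved the higher calls with siBDNF from 2227 of 4412 to 3139 of 4527, and between the siRNAs from 1903 of 3595 to 1349 of 3576. HLA-F, at 16 to 55 counts, is limited by depth.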

Other observations

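Of the 6 class II genes tested of 8, 3 rose and 2 fell in senescence by edgeR, beside 29.8% and 28.3% of all genes tested. CIITA, the class II transactivator and a relative of NLRC5, rose by a log2 fold change of 0.42 (SE 0.0757, adjusted p = 4.16e-05) where NLRC5 fell, and it fell with siNTRK2 (-0.21, adjusted p = 0.0474) and siBDNF (-0.25, adjusted p = 0.0200). In senescence HLA-DMA and HLA-DMB rose by 0.51 (adjusted p = 0.00107) and 1.14 (adjusted p = 2.96e-05), while HLA-DPA1 and HLA-DPB1 both fell by -1.57 (adjusted p = 8.98e-04 and 1.87e-05). Among the 6 tested, only CIITA fell with siNTRK2, and HLA-DMA fell beside CIITA with siBDNF (-0.43, adjusted p = 0.0144). None rose with either siRNA. Among all genes tested, 10.0% fell and 11.1% rose with siNTRK2, and 10.2% fell and 10.3% rose with siBDNF. HLA-DRA and HLA-DRB1 were at 0 counts in all proliferating libraries and at 0 to 9 and 3 to 13 counts in the senescent ones, and were not tested. These class II genes are typical of leukocytes, whose summed markers also moved with the groups, and their part was not tested.

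Of the 6 other class I-like genes, 3 rose and 1 fell in senescence by edgeR, beside 29.8% and 28.3% of all genes tested. Again 3 rose and 1 fell with siNTRK2, beside 11.1% and 10.0%. MR1, which presents bacterial vitamin metabolites, rose in senescence (0.46, adjusted p = 1.83e-06) and fell with siNTRK2 (-0.25, adjusted p = 0.00744). HFE, a regulator of iron uptake, fell (-0.31, adjusted p = 8.32e-04) and rose with siNTRK2 (0.28, adjusted p = 0.00790). FCGRT rose in senescence (0.26, adjusted p = 2.34e-04) and again with siNTRK2 (0.49, adjusted p = 2.87e-07), and HLA-G rose with siNTRK2 (0.41, adjusted p = 0.0293). AZGP1 was also called higher in senescence, from 0 counts in all proliferating libraries and 12, 15 and 2 in the siCtrl senescent ones. None of the 6 passed the test with siBDNF, where 10.3% of all genes tested rose and 10.2% fell.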
